A study of Mus musculus with 12 samples.

Results

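The transcripts uc007jml.1, uc007jmm.1, uc007jmn.1, uc007jmq.1, uc007jmr.1 and uc007jms.1 are 6 UCSC identifiers that stand next to each other in the deposited tables, out of 63759 identifiers in all. They were picked by identifier, as a run of neighbours whose ratio of ribosome footprints to mRNA was higher in knockout eyes. That ratio was seen in these same libraries, so the differences between genotypes in mRNA, in footprints and in the ratio are given here as a description of the transcripts and not as tests of them. The run holds 1 long transcript, uc007jmn.1 (listed length 1928), 1 of middle size, uc007jmm.1 (892), and 4 short ones, uc007jmr.1 (299), uc007jmq.1 (288), uc007jms.1 (274) and uc007jml.1 (186). The listed length is a number the tables give for each transcript without a unit.

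The study measured whole eyes of mice at postnatal day 0.5, either wild type (WT) or knockout for RNG140 (KO). Each of the 4 groups, mRNA or footprints from WT or KO eyes, held 3 libraries, 12 in all. The labels give no allele, litter, sex or day of preparation, and nothing says that the libraries came from separate animals, so the spread between libraries may be partly technical. The files do not pair the identifiers with genes, and the reference tables used here matched 0 of the 6, so neither the knocked-out gene nor the defining markers of eye tissue were checked, and no gene name, genome position or sequence is given.

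RNG140, the product of Caprin2, is an RNA-binding protein of RNA granules, the cytoplasmic bodies in which mRNAs are held and their translation is adjusted. Ribosome profiling digests the mRNA that ribosomes do not cover and sequences the short protected footprints, so that footprint counts follow the number of ribosomes on an mRNA, whereas RNA-seq follows the amount of the mRNA. A transcript's footprint-to-mRNA ratio is read as its translation efficiency, and it can rise because footprints rise, because mRNA falls, or through both.

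Total counts ran from 327847 to 5966639 in the footprint libraries and from 666464 to 1244104 in the mRNA libraries. Footprint libraries 1, 2 and 3 held 327847, 847125 and 5966639 counts in WT and 5498069, 2266036 and 1875021 counts in KO. Footprint libraries of WT eyes resembled each other less (Spearman correlations across features of 0.694 to 0.844) than those of KO eyes (0.912 to 0.922). Whether the low depth of WT footprint libraries 1 and 2 accounts for this was not tested. The 100 most abundant features took 25.7% to 47.1% of the counts of a footprint library and 6.84% to 17.3% of an mRNA library. Levels below are CPM, counts scaled to a common library total of 1e+06.

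The long transcript uc007jmn.1 had less mRNA in KO eyes and, on average, more footprints. Its mRNA stood at 518.4, 478.6 and 418.5 CPM in WT libraries 1, 2 and 3 and at 174.8, 112.0 and 121.7 CPM in KO libraries 1, 2 and 3. The groups did not overlap, and the mean was 3.47-fold lower in KO (471.9 ± 50.3 against 136.1 ± 33.8 CPM, SD, n = 3). In whole eyes, fewer cells that carry a transcript and less of it per cell cannot be told apart.

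The footprints of uc007jmn.1 were 180.0, 145.2 and 67.4 CPM in WT and 111.1, 265.7 and 318.4 CPM in KO libraries 1, 2 and 3. KO libraries 2 and 3 were above every WT library, but KO library 1 was below WT libraries 1 and 2, so the groups overlapped. The means were 130.8 ± 57.6 CPM in WT and 231.7 ± 108 CPM in KO (SD, n = 3). WT library 1 rested on 59 counts, which puts its level between 137.0 and 232.1 CPM by counting error alone (exact 95% Poisson interval). The lowest library of each genotype, WT library 3 and KO library 1, was the one with the largest share of its counts in the 100 most abundant features (47.1% and 43.9%).

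The middle-sized transcript uc007jmm.1 showed the same fall in mRNA and higher footprints in KO, with groups that separated. Its mRNA was 238.7, 211.6 and 203.1 CPM in WT and 98.7, 54.1 and 55.7 CPM in KO, where every KO library was below every WT library. Its footprints were 67.1, 56.7 and 36.5 CPM in WT and 81.1, 164.6 and 224.0 CPM in KO, where every KO library was above every WT library. The mean fell 3.13-fold in mRNA and was 2.93-fold higher in footprints.

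Among the short transcripts, uc007jmq.1 had the highest mean footprint level in KO relative to WT. Its footprints were 12.2, 16.5 and 14.4 CPM in WT and 30.6, 63.1 and 79.5 CPM in KO, a mean 4.01-fold higher. Its mRNA was 76.4, 52.5 and 54.9 CPM in WT and 24.0, 17.6 and 20.7 CPM in KO. Both assays separated the genotypes, in opposite directions. The counts behind these values were small, from 4 to 86 in WT footprint libraries and from 14 to 17 in KO mRNA libraries.

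For uc007jml.1, the shortest of the 6, the KO footprint libraries were again all above the WT libraries, at 26.2, 25.6 and 39.5 CPM against 18.3, 7.08 and 10.1 CPM. Its mRNA was 40.2, 52.5 and 45.3 CPM in WT and 26.8, 15.1 and 12.9 CPM in KO. This is the smallest fall in mRNA of the 6, 2.52-fold in the mean.

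The pair uc007jmr.1 and uc007jms.1 overlapped between genotypes in footprints, as uc007jmn.1 did and through the same library. Footprints of uc007jmr.1 were 24.4, 15.3 and 9.55 CPM in WT and 17.5, 41.5 and 72.5 CPM in KO, and those of uc007jms.1 were 21.4, 15.3 and 9.39 CPM in WT and 16.0, 39.7 and 65.1 CPM in KO. In both, KO library 1 fell below WT library 1, which held 8 and 7 counts. Their mRNA fell 2.83-fold and 3.19-fold in the mean, from 46.7 to 60.0 CPM in WT to between 11.3 and 28.2 CPM in KO for uc007jmr.1, and from 43.9 to 50.6 CPM to between 11.3 and 18.3 CPM for uc007jms.1.

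**Figure D1:**
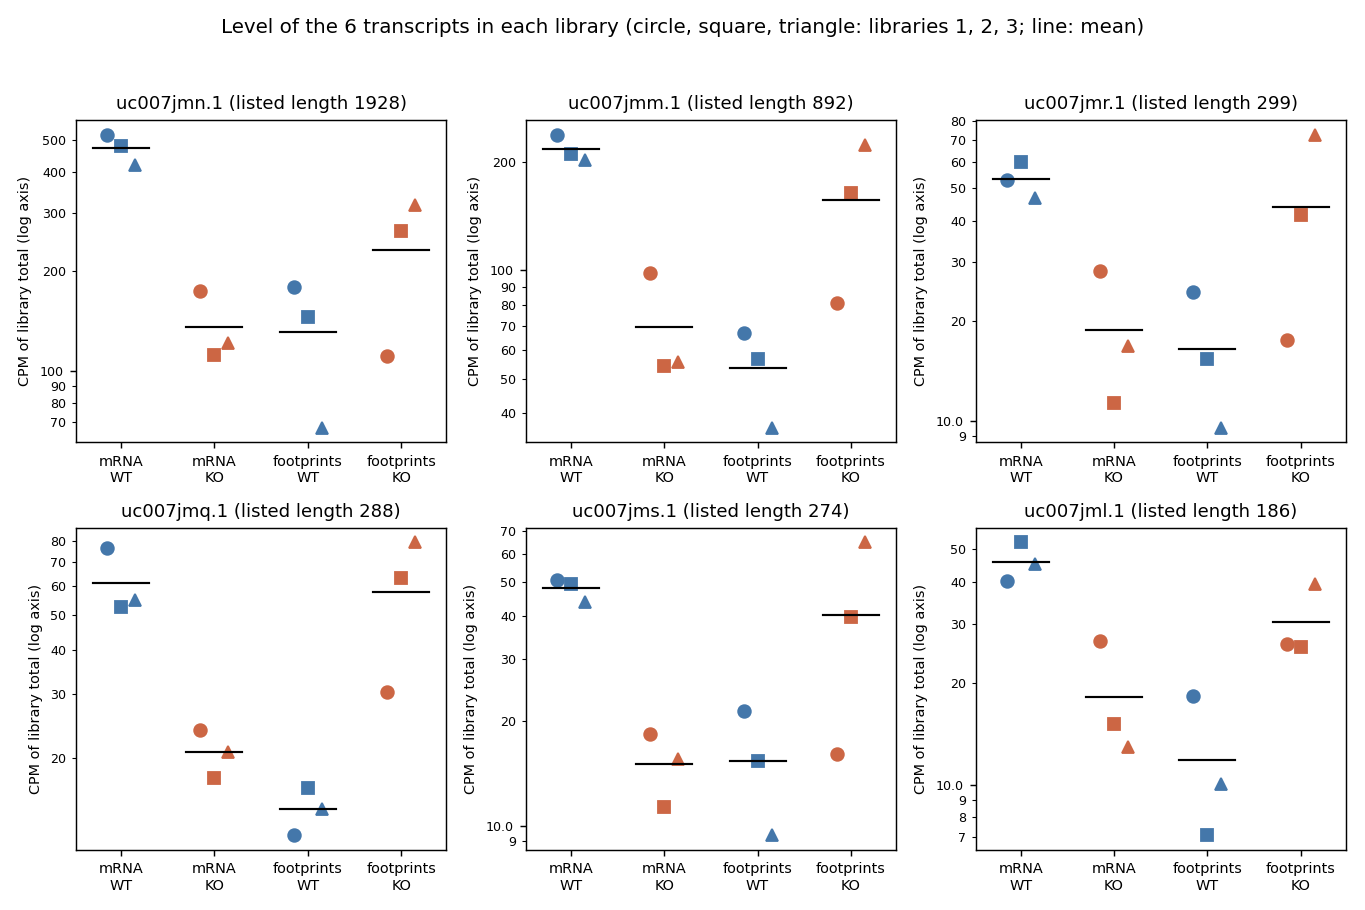
CPM of the library total (log axis) of each of the 6 transcripts in the 12 libraries, with 1 symbol per library and a line at the group mean of 3. In each panel the KO mRNA points lie below the WT mRNA points, and the KO footprint points lie above or overlap the WT footprint points, with KO library 1 (circle) low in uc007jmn.1 at 111.1 CPM.

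In mRNA, the KO libraries were below the WT libraries in 6 of the 6 transcripts, a pattern found in 24.9% of the 14131 features tested. In footprints, the KO libraries were above the WT libraries in 3 of the 6 (uc007jmm.1, uc007jmq.1 and uc007jml.1), against 13.2% of the 17236 features tested. A feature here is a distinct set of 12 counts. Since the 6 were picked from these contrasts and may share reads, nothing is read from their number.

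The model fitted over all features placed the 6 transcripts as follows. The median log2 fold change of KO over WT was -1.33 in mRNA (-1.51 to -1.04), beside 0.02 for all features tested, and 1.5 in footprints (0.93 to 1.81), beside -0.02. Among the 2841 features with a listed length of 1000 to 3000, the range that holds uc007jmn.1, the median was -0.31 in mRNA, and it was -0.26 among the 2706 such features tested in footprints. For uc007jmn.1 the log2 fold change was -1.51 (SE 0.32) in mRNA and 0.93 (SE 0.49) in footprints. On plain CPM the median of all features in mRNA lay 0.28 lower than in the model, which rescales the libraries by TMM (a trimmed mean of the ratios between libraries), and the log2 fold change of uc007jmn.1 was -1.79.

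By edgeR's quasi-likelihood test at an adjusted p under 0.05, 6 of the 6 transcripts fell in mRNA, as did 6.02% of all features tested. Without KO mRNA library 3 the calls were 2 (uc007jmq.1 and uc007jms.1), beside 1.03% of all features called as lowered in that setting, and uc007jmn.1 then had a log2 fold change of -1.43. Without WT mRNA library 2, or without KO mRNA library 2, 4 of the 6 were called, with uc007jml.1 and uc007jmr.1 lost, beside 2.27% and 1.92% of all features. DESeq2 called 5, with uc007jml.1 lost, beside 2.99%. In footprints, 0 of the 6 were called as raised, beside 0.685% of all features, and 5 had an unadjusted p under 0.05 (the exception was uc007jmn.1), as had 3759 of the 17236 features. DESeq2 called 2 of them as raised (uc007jmm.1 and uc007jmq.1), beside 1.81% of all features. Without the low-count filter 2 were called (uc007jmq.1 and uc007jmr.1), with 485 of 32323 features raised. Without WT footprint library 3 it was 4, beside 5.53% of all features.

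The footprint-to-mRNA ratio of uc007jmn.1, taken between group means, was 0.277 in WT and 1.70 in KO, 6.14-fold higher. Because the labels do not tie a footprint library to an mRNA library, the ratio was also formed for each of the 9 combinations of libraries within a genotype. These ran from 0.130 to 0.430 in WT and from 0.636 to 2.84 in KO, and so they did not overlap.

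The other transcripts gave ratios of a like size. Between group means they ran in WT from 0.235 for uc007jmq.1 to 0.320 for uc007jms.1. In KO they ran from 1.66 for uc007jml.1 to 2.78 for uc007jmq.1, which had the highest such ratio of the 6 in KO and the lowest in WT. The fold from WT to KO between group means was 11.8 for uc007jmq.1, 9.19 for uc007jmm.1, 8.36 for uc007jms.1, 7.56 for uc007jmr.1 and 6.48 for uc007jml.1. Between same-numbered WT libraries 1, 2 and 3, the 6 ratios ran from 0.160 to 0.460, 0.135 to 0.315 and 0.161 to 0.263. Between same-numbered KO libraries 1, 2 and 3, they ran from 0.619 to 1.28, 1.70 to 3.66 and 2.62 to 4.31. The closeness of the WT ratios between group means thus did not hold in each numbered set.

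The lowest KO combination was above the highest WT combination in 6 of the 6 transcripts, beside 2.34% of the 25927 features tested for the ratio. The margin was narrow in uc007jmr.1, with 0.523 as the highest WT value and 0.619 as the lowest KO value, and wide in uc007jmq.1, with 0.315 and 1.28. KO footprint library 1 was the lowest KO footprint library in 5 of the 6, the exception being uc007jml.1. Without it the log2 fold change of the uc007jmn.1 ratio between group means was 2.95 in place of 2.62. With each library total taken without the 100 most abundant features it was 2.52.

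**Figure D2:**
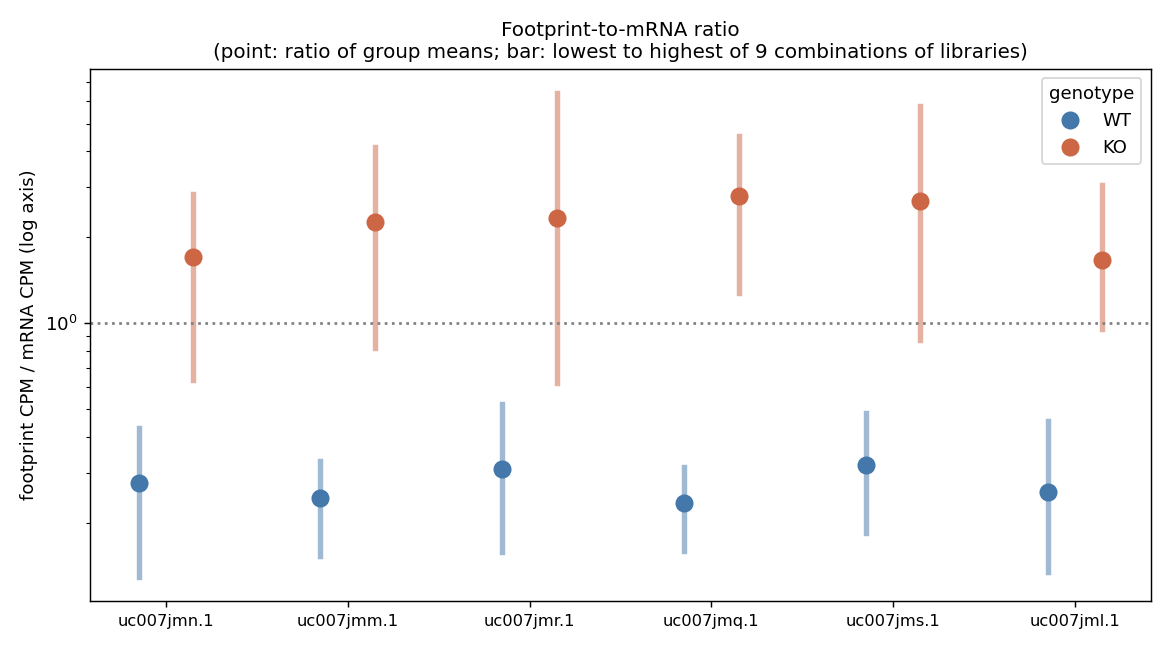
Footprint CPM divided by mRNA CPM (log axis) for each transcript in WT and KO, where the point is the ratio of the group means and the bar spans the 9 combinations of footprint and mRNA libraries. The WT bars end at or below 0.523 and the KO bars start at or above 0.619, with a dotted line at a ratio of 1.

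In the model of all 12 libraries, the log2 fold change of the ratio was 2.62 (SE 0.58) for uc007jmn.1, 3.11 (SE 0.55) for uc007jmm.1 and 3.17 (SE 0.53) for uc007jmq.1. The other 3 lay between 2.55 and 2.97. This model scales and filters the 12 libraries together, so its values are not exactly the differences of the separate footprint and mRNA fits. The median of the 6 was 2.93, beside -0.07 over all features tested and 0.20 over the 3336 with listed lengths of 1000 to 3000. Of all features, 99.2% had a lower value than uc007jmn.1 and 99.6% a lower value than uc007jmq.1, which describes how the transcripts were picked.

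By edgeR's quasi-likelihood test of this interaction, 0 of the 6 were called, and the share of all features called was 0%, although 2567 features had an unadjusted p under 0.05, the 6 among them. DESeq2 called 92 features (55 of them raised, 0.212% of all), among them uc007jmm.1 and uc007jmn.1. It gave no adjusted p for uc007jml.1, uc007jmq.1, uc007jmr.1 and uc007jms.1, so for these there was no verdict. Of the 6, edgeR called 6 without WT footprint library 1 (36 features in all, 17 of them raised, 0.066% of all tested). It called 6 without WT footprint library 3 (108, 24 of them raised, 0.0944%) and 4 without KO footprint library 1 (11, 8 of them raised, 0.0317%). It called 2 with DESeq2 size factors (2 in all), 4 without the low-count filter (5 in all) and 1 with every transcript tested separately (1 in all). With any other single library left out, edgeR called 0 features. It also called 0 with its default low-count filter added and with library totals before filtering. The log2 fold change of the uc007jmn.1 ratio stayed between 2.40 and 2.87 in the 19 alternatives of the model.

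**Figure D3:**
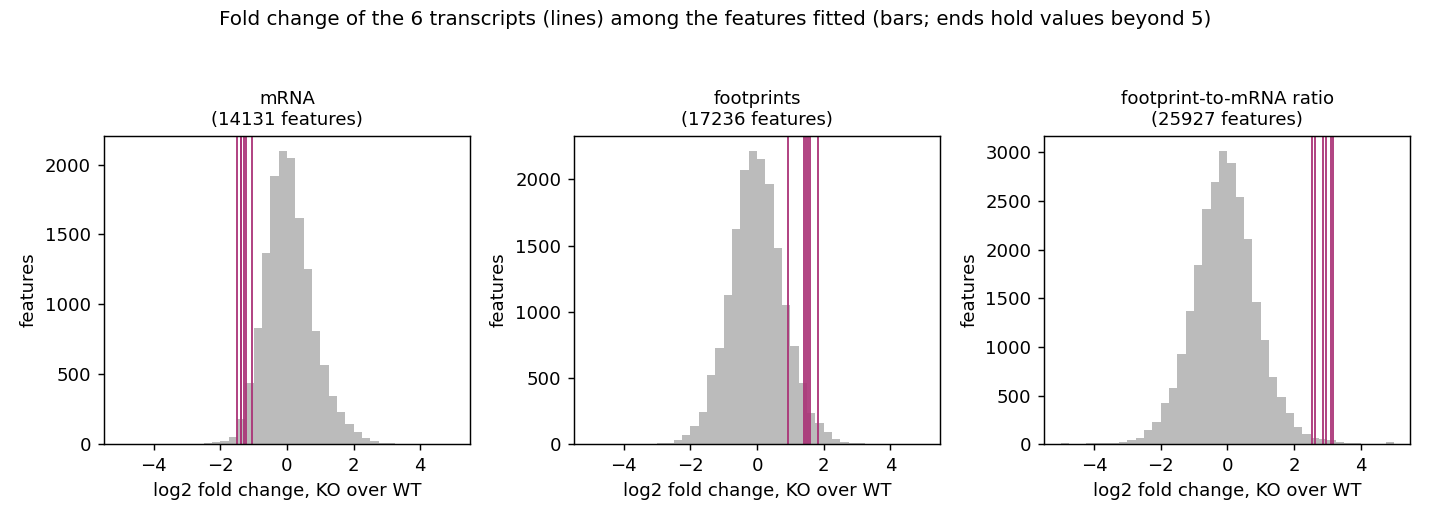
Histograms of the log2 fold change of KO over WT (x axis) against the number of features (y axis) for mRNA, footprints and the footprint-to-mRNA ratio, with a line for each of the 6 transcripts. The lines lie from -1.51 to -1.04 in mRNA, from 0.93 to 1.81 in footprints and from 2.55 to 3.17 in the ratio.

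The 6 transcripts may not be 6 independent measurements. The tables hold no coordinates, and whether reads are shared among the 6 was not tested. Their counts allow a long transcript with the others as parts of it, but counts that are larger in longer transcripts would also come from separate transcripts of similar level per length. The count of uc007jmn.1 was above that of each of the other 5 in 12 of 12 libraries, and the count of uc007jmm.1 was above that of each of the 4 short ones in 12 of 12. The count of uc007jmr.1 was at least that of uc007jms.1 in 12 of 12 libraries and equal to it in 2. None of the 6 shared all 12 counts with another identifier.

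The counts of uc007jml.1, uc007jmq.1 and uc007jmr.1 together came to between 68.8% and 93.1% of the count of uc007jmm.1, and never exceeded it. The remaining short transcript, uc007jms.1, had 65.0% to 100% of the count of uc007jmr.1. How the authors assigned a read that fits several transcripts, and whether strand was used in counting, is not given in the sources used here.

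Scaled by listed length, the mRNA of the 6 transcripts was similar in WT. Mean mRNA levels per 100 units of listed length were 24.5 CPM for uc007jmn.1, 24.4 for uc007jmm.1, 24.7 for uc007jml.1 and 21.3 for uc007jmq.1, and lower for uc007jmr.1 (17.8) and uc007jms.1 (17.5). In KO mRNA they ran from 5.50 (uc007jms.1) to 9.83 CPM (uc007jml.1).

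Mean footprints per 100 units of listed length ran in WT from 4.99 CPM for uc007jmq.1 to 6.79 CPM for uc007jmn.1. In KO the means ran from 12.02 CPM for uc007jmn.1 to 20.04 CPM for uc007jmq.1. Within WT libraries 1, 2 and 3 the 6 values ran from 4.24 to 9.84, 3.81 to 7.53 and 3.20 to 5.41 CPM. Within KO libraries 1, 2 and 3 they ran from 5.76 to 14.08, 13.76 to 21.91 and 16.51 to 27.59 CPM. The closeness of the WT means thus did not hold within each WT library. Library by library, uc007jmn.1 had the highest of the 6 values in 1 of 3 WT libraries and the lowest in 2 of 3 KO libraries.

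Relative to uc007jmn.1, uc007jmm.1 had a higher footprint count in the KO libraries than in the WT libraries. How often other pairs of transcripts differ in this way was not tested. The listed length of uc007jmm.1 is 46.3% of that of uc007jmn.1. In WT mRNA its count was 46.0%, 44.2% and 48.5% of the uc007jmn.1 count, and in KO mRNA it was 56.5%, 48.3% and 45.7%. These mRNA shares overlapped between genotypes and lay around the share of the length.

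In footprints the share of uc007jmm.1 was 37.3%, 39.0% and 54.2% in WT libraries 1, 2 and 3 and 73.0%, 62.0% and 70.4% in KO libraries 1, 2 and 3. Every KO library was above every WT library, with means of 68.4 ± 5.76% and 43.5 ± 9.32% (SD, n = 3). The shares in WT libraries 1 and 2 rested on 22 of 59 and 48 of 123 counts. The nearest libraries, WT 3 (95% interval 49.2% to 59.2%) and KO 2 (57.9% to 65.9%), had overlapping exact Clopper-Pearson intervals. Such intervals hold only if the reads of uc007jmm.1 are among those of uc007jmn.1, which was not tested. Intervals and counts here cover counting error only, since reads were not marked as separate molecules. The difference in means was 24.9 percentage points, and it was 21.8 without WT footprint library 1 and 22.6 without KO footprint library 1.

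**Figure D4:**
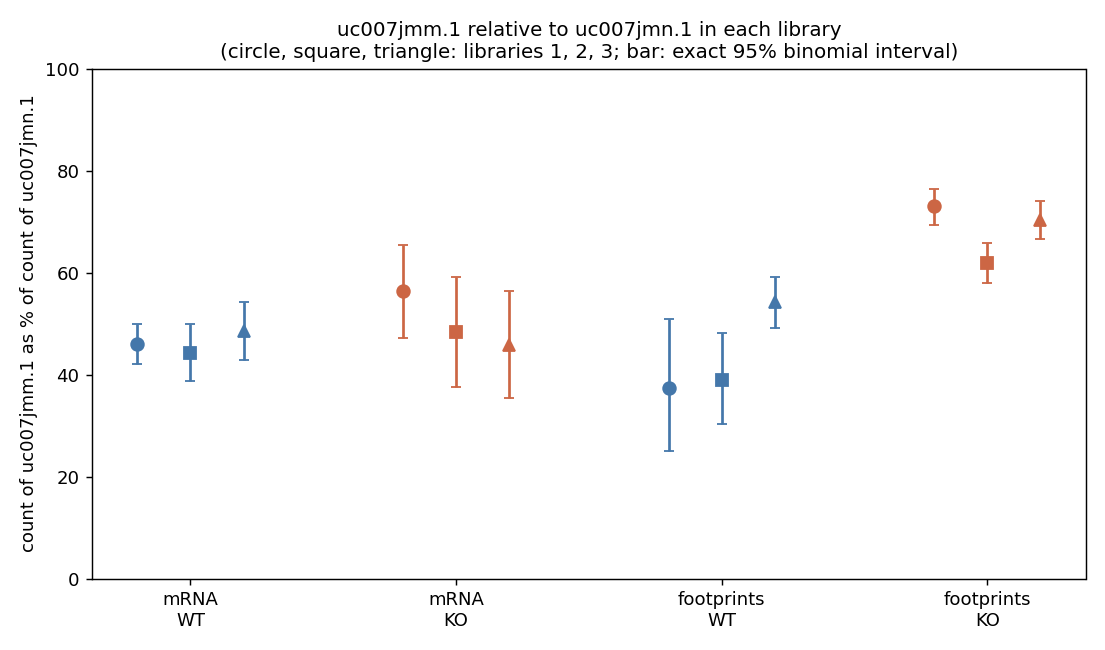
Count of uc007jmm.1 as a percentage of the count of uc007jmn.1 (y axis) in each library, by assay and genotype, with exact 95% binomial intervals. The intervals take the uc007jmm.1 reads as part of the uc007jmn.1 reads, which was not tested. The mRNA libraries lie between 44.2% and 56.5%, the WT footprint libraries between 37.3% and 54.2% and the KO footprint libraries between 62.0% and 73.0%.

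The counts of uc007jmn.1 that were left after those of uc007jmm.1 had been subtracted gave the other side of this pattern. If uc007jmm.1 is a part of uc007jmn.1, this remainder spans 1036 units of listed length. Its footprints were 112.9, 88.5 and 30.8 CPM in WT and 30.0, 101.1 and 94.4 CPM in KO, with means of 77.4 ± 42.1 and 75.2 ± 39.2 CPM (SD, n = 3). The groups overlapped over nearly their whole range.

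The mRNA of the remainder was lower in KO as that of the whole was, with 279.7, 267.1 and 215.4 CPM in WT and 76.1, 57.9 and 66.0 CPM in KO. The ratio of the remainder was 0.305 in WT and 1.13 in KO, 3.70-fold higher. For the remainder, then, the group means differed in mRNA, and in footprints the spread was too wide to tell whether they differed. For uc007jmm.1 the KO libraries were all below the WT libraries in mRNA and all above them in footprints. Its footprint means were 53.4 ± 15.5 CPM in WT and 156.6 ± 71.8 CPM in KO (SD, n = 3), and the main edgeR fit did not call it in footprints. Whether uc007jmm.1 and the remainder differed in their footprint change was not tested. The remainder is a stretch of transcript only if uc007jmm.1 is a part of uc007jmn.1, which was not tested.

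If uc007jmm.1 is a part of uc007jmn.1, its footprints per unit of listed length can be set against those of the remainder. They were 0.691, 0.743 and 1.38 times as dense as on the remainder in WT libraries. In KO libraries they were 3.14, 1.89 and 2.76 times as dense. In mRNA this density ratio was 1.002 ± 0.088 in WT and 1.19 ± 0.28 in KO (SD, n = 3).

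Taken as a share of the uc007jmn.1 footprint count, the counts of the 4 short transcripts differed between libraries. The share of uc007jmq.1 was 23.8% to 27.5% in KO footprints and 6.78% to 21.4% in WT footprints, which did not overlap. The share of uc007jml.1 was 23.6% in KO library 1 but 9.63% and 12.4% in KO libraries 2 and 3, against 4.88% to 14.9% in WT. The share of uc007jmr.1 was 22.8% in KO library 3 and 15.7% and 15.6% in the other KO libraries, against 10.6% to 14.2% in WT. That of uc007jms.1 was 14.4% to 20.4% in KO and 10.6% to 13.9% in WT. Both pairs of ranges did not overlap, by narrow margins, whereas those of uc007jml.1 overlapped. The KO libraries differed among themselves in these shares, with KO library 1 high in uc007jml.1 and KO library 3 high in uc007jmr.1.

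Just outside the 6, uc007jmo.1 and uc007jmp.1 (listed length 108) stand at the start of the same run and had the same count as each other in all 12 libraries. Their mRNA was 22.5, 39.0 and 30.2 CPM in WT and 22.6, 3.77 and 9.06 CPM in KO, so that KO library 1 overlapped WT. Their footprints were 9.15, 7.08 and 5.87 CPM in WT and 18.4, 18.1 and 20.8 CPM in KO, which did not overlap. The model gave uc007jmo.1 a log2 fold change of the ratio of 2.58 (SE 0.61), within the 2.55 to 3.17 of the 6. Its KO mRNA libraries held only 3 to 16 counts. The count of uc007jmo.1 and uc007jmp.1 never exceeded that of uc007jml.1.

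Of the 16 other identifiers that begin with uc007jm, 4 had listed lengths of 1929 to 1933, next to the 1928 of uc007jmn.1. Their mRNA was scarce, with group means of 5.32 to 19.8 CPM in WT and 1.27 to 12.6 CPM in KO, and at most 22 counts in a library. Their footprints were higher, with group means of 13.3 to 50.1 CPM in WT and 23.0 to 62.7 CPM in KO. In 3 of them the ratios were above 1 already in WT, from 1.11 to 2.53, and were 4.98 to 6.23 in KO. These KO ratios are uncertain, since they rested on 2 to 15 mRNA counts in a library. The remaining one, uc007jmj.2, had 0, 2 and 1 mRNA counts in the KO libraries, too few for a reliable ratio. Whether these transcripts share sequence with uc007jmn.1 was not tested, and the levels of all of them are uncertain as far as reads that fit several of them are concerned.

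In these 4, footprint means were 1.23-fold to 1.73-fold higher in KO than in WT with groups that spread widely. The model gave log2 fold changes of 0.38 to 0.81 in footprints and, without uc007jmj.2, 1.02 to 2.17 in the ratio. For uc007jmj.2 the log2 fold change of the ratio was 2.35 (SE 0.95), which is left out of the comparison because of its few mRNA counts. Against the 0.93 and 2.62 of uc007jmn.1 the other values were lower, but the differences between the transcripts were not tested. The only one of the 4 that passed the low-count filter in mRNA had a log2 fold change of -0.36 (SE 0.45).

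**Figure D5:**
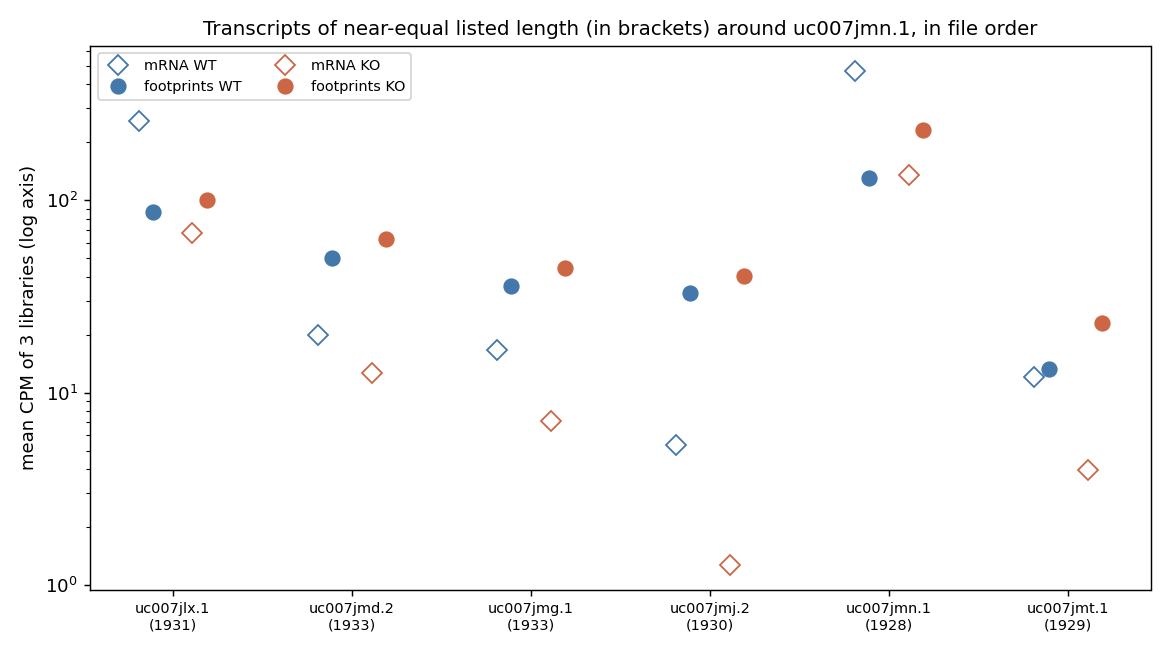
Mean CPM over 3 libraries (log axis) of mRNA (diamonds) and footprints (circles) in WT and KO for 6 transcripts of near-equal listed length in the order of the tables. The transcripts uc007jmn.1 and uc007jlx.1 have more mRNA than footprints in WT and less in KO, whereas in the other 4 the footprint mean is above the mRNA mean in both genotypes.

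By the rule set for likeness, the features outside the run whose log2 CPM, centred within each assay, differed least from uc007jmn.1 over the 12 libraries were uc009jrf.1 (listed length 985, root mean square difference 0.32) and uc009tnz.1 (listed length 1979, 0.33), among 25927 features. The median difference over the features outside the run was 0.93. The other 5 transcripts of the run differed from uc007jmn.1 by 0.20 (uc007jms.1) to 0.47 (uc007jml.1). Of the 25915 features outside the run, 122 differed from uc007jmn.1 by less than uc007jml.1 did.

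The first of these, uc009jrf.1, had mean mRNA of 77.8 ± 20.8 CPM in WT and 24.0 ± 8.45 CPM in KO, and footprints of 32.9 ± 14.2 and 36.3 ± 14.2 CPM (SD, n = 3). In uc009tnz.1 mRNA was 421.7 ± 109.0 CPM in WT and 186.7 ± 24.6 CPM in KO, and footprints were 93.9 ± 57.1 and 137.5 ± 53.4 CPM (SD, n = 3). In both, the model's log2 fold change of the ratio was lower than in uc007jmn.1, at 1.86 (SE 0.49) and 1.84 (SE 0.56).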

How the data were processed

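Each library has 1 deposited table of raw read counts per UCSC transcript identifier, in whole numbers. Per the labels, footprint libraries came from RNase I digestion and ribosome pelleting and mRNA libraries from a stranded TruSeq kit. The tools named in the submitters' processing notes are TopHat2 2.0.9, Bowtie2 2.3.4.2 and CASAVA 1.8, with the mouse build mm10. No source used here gives the counting rule, read-length filter or annotation version. The second number in each deposited table, the listed length, has no stated unit.

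The 6 transcripts and the rules were chosen with earlier results of these data known. CPM was the count scaled to a library total of 1e+06 over all 63759 identifiers. Those with the same 12 counts were kept once (32803 features). edgeR 4.0.16 (R 4.3.3, limma 3.58.1) fitted quasi-likelihood models with TMM scaling and Benjamini-Hochberg adjustment over all features tested: mRNA and footprints each in 6 libraries with the default low-count filter, and the ratio as the assay-by-genotype interaction in 12 libraries, for features with at least 10 counts in each assay. SE came from the F statistic. The scripts were tested on simulated data. Alternatives included DESeq2 1.42.0, other filters and library totals, a replicate block and leaving out each library. Log2 CPM for correlations and likeness used a prior count of 2. The rule for naming took the 6 transcripts whatever their values, the other uc007jm identifiers by range, and the 2 features most like uc007jmn.1. The marker lists set for eye tissue were not used, since identifiers are not paired with genes.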

Additional observations from a re-analysis of the deposited data

How the results depend on the processing

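Counts of called features depended on the processing, and for these shifts the cause was not tested. In the mRNA fit, with 2145 calls, DESeq2 gave 1281, and leaving out replicates gave 652 (without KO library 3) to 4379 (without WT library 3). For footprints (193 calls, 118 raised and 75 lowered), DESeq2 gave 717 (312 raised, 405 lowered), no low-count filter 968, every transcript separate 82, library totals before filtering 81 (added after seeing the data), and leaving out replicates 0 to 3057 (without WT library 3). It was 0 without WT library 2 and KO libraries 1 and 2, each left out alone, where 2529 to 3156 features had an unadjusted p under 0.05. For the ratio (0 calls by edgeR), DESeq2 size factors gave 2, DESeq2 92, no low-count filter 5, every transcript separate 1, and leaving out replicates 0 to 108 (without WT footprint library 3).

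The labels do not say that library numbers pair samples. Same-numbered footprint and mRNA libraries of a genotype deviated from their group means with correlations of 0.022 to 0.38, 2 of 6 of them over 0.1, and in 5 of 6 cases the correlation was best with the own number. Same-numbered WT and KO libraries of an assay gave -0.38 to 0.13, with 1 of 6 over 0.1 and 2 of 6 best. With the replicate block edgeR called 2120 features in mRNA, 0 in footprints (2814 at an unadjusted p under 0.05) and 321 in the ratio. In that ratio fit 6 of the 6 transcripts were called as raised, beside 146 of all 25927 features (0.563%), and 175 features were called as lowered.

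The log2 fold change of the uc007jmn.1 ratio between group means (2.62) ran from 2.3 to 2.95 with replicates left out and was 1.89 with the counts of uc007jmm.1 subtracted. In the alternatives run, no fold change of the 6 transcripts changed sign. Depth limited the short transcripts most, with as few as 4 counts in a library.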

Other observations

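The transcript uc007jlx.1 (listed length 1931) stands a little earlier in the tables and was singled out after its values were seen. Its mRNA was 259.6, 276.1 and 234.7 CPM in WT and 64.8, 78.0 and 59.5 CPM in KO, groups that did not overlap. Its footprints were 85.4, 122.8 and 54.1 CPM in WT and 46.6, 136.8 and 117.3 CPM in KO, groups that overlapped. The ratio of its group means was 0.340 in WT and 1.49 in KO, and the model gave it log2 fold changes of -1.64 (SE 0.26) in mRNA, 0.21 (SE 0.46) in footprints and 2.0 (SE 0.55) in the ratio. Its mRNA thus differed between genotypes much as that of uc007jmn.1 did (-1.51), while the difference between their footprint changes was not tested.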
